A study of Mus musculus with 6 samples.

Results

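The HLA and antigen presentation genes were described in STS26T xenografts, tumours formed under the skin of athymic nude mice by a human cell line from a malignant peripheral nerve sheath tumour. Members were all symbols of the deposited expression table that begin with HLA-, which gave 27 genes, and 19 named genes of class I assembly, peptide processing, the class II pathway and their transcriptional control. All 46 were found among the 23284 gene symbols listed. They comprised 10 class I genes with B2M, 18 class II genes with CD74, 12 genes of peptide processing and loading, 5 regulators and 1 antisense transcript, HLA-F-AS1. RNA had been sequenced from 3 tumours of mice given anti-ENG antibodies, TRC105 against human and M1043 against mouse endoglin, and from 3 tumours of mice given the matching IgG. Each antibody or its control was injected into the peritoneum at 10 mg/kg, 2 times a week for 3 weeks. The tumours derive from 1 cell line, and the table lists human genes although the organism is labelled as mouse. Athymic nude hosts lack thymus-derived T cells but retain B cells, natural killer cells, macrophages and dendritic cells, all of mouse origin.

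Class I molecules carry peptides from the cytosol to the cell surface, where CD8 T cells and natural killer cells read them. The proteasome, in an inducible form with the subunits of PSMB8, PSMB9 and PSMB10, cuts the peptides, the TAP transporter moves them into the endoplasmic reticulum, and tapasin and other chaperones load them onto a heavy chain paired with beta-2 microglobulin. Class II molecules present peptides from the endosomal route to CD4 T cells and are normally made by professional antigen-presenting cells, although tumour cells can make them after exposure to interferon gamma. NLRC5 is the coactivator of class I genes and CIITA that of class II genes, and both act through the RFX complex on promoters. Endoglin, the target of the treatment, is an accessory receptor for TGF-beta and related ligands.

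Values are FPKM, fragments per kilobase of transcript per fixed number of mapped fragments, so levels of different genes can be compared per length. Summed FPKM was 475146, 446100 and 457265 in anti-ENG 1, 2 and 3. It was 443148, 413506 and 410786 in IgG control 1, 2 and 3, so these totals did not overlap between the arms. Total depth is unknown, and relative depth, read from the value of 1 fragment in low genes, was 1.46, 1.23 and 1.14 times that of IgG control 1 in anti-ENG 1, 2 and 3, against 1.18 and 1.10 times in IgG control 2 and 3. Of the Schwann and neural crest markers, S100B and SOX10 did not exceed 0.188 FPKM in any tumour and CDH19 was listed at 0, while VIM, which codes for vimentin, was at 1386 to 2181.8 FPKM. The tumours' code numbers are shared by anti-ENG 1 and 2 (21) and by IgG control 2 and 3 (5). In the deposited column names the tumours of each pair differ by the letters L and R, whose meaning is not stated. Whether the tumours of a pair grew in 1 animal is not stated either. If they did, they are not independent, and the p-values may overstate the evidence. The p-values measure the spread between these samples, which may also be partly technical.

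No member passed the test between the arms. With limma on log2(FPKM + 1), run over the 12586 genes whose 6-tumour mean reached 1 FPKM, 0 of the 36 members tested had an adjusted p under 0.05 (Benjamini-Hochberg), as had 0% of all genes tested. At an unadjusted p under 0.05 there were 2 members, HLA-H and HLA-J, which is 5.56% of the members against 9.17% of all genes. The arms did not overlap in 1 member, HLA-J, or 2.78% of the members, against 17.3% of all genes. Estimates lay below 0 in 29 of the 36, or 80.6%, against 48.8% of all genes. Of the other 10 members, 4 were listed at 0 in all tumours and 6 had a mean below 1 FPKM. The smallest two-sided p that an exact permutation of 3 against 3 tumours allows is 0.1.

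The classical class I genes were among the most abundant transcripts of these tumours. B2M, the invariant light chain, ranked 2 of all genes above 0 by mean FPKM, HLA-B ranked 7 and HLA-C 17. HLA-B had 1451, 2835 and 2330.4 FPKM in anti-ENG 1, 2 and 3, against 3222, 2015 and 2234 FPKM in IgG control 1, 2 and 3. HLA-C had 1004, 1895 and 1515 FPKM in the anti-ENG tumours, against 2246, 1315 and 1429 FPKM in the IgG tumours. In both genes IgG control 1 was the highest tumour and anti-ENG 1 the lowest, so each arm held an extreme. Of the 4 tumours between them, anti-ENG 2 and 3 lay above IgG control 2 and 3. These genes also kept a nearly fixed proportion to each other. HLA-B made up 59.1 to 60.6% of their summed FPKM in the anti-ENG tumours and 58.9 to 60.99% in the IgG tumours. The sum itself ran from 2455 to 4730.3 FPKM in the anti-ENG tumours and from 3329.8 to 5468 FPKM in the IgG tumours.

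**Figure D1:**
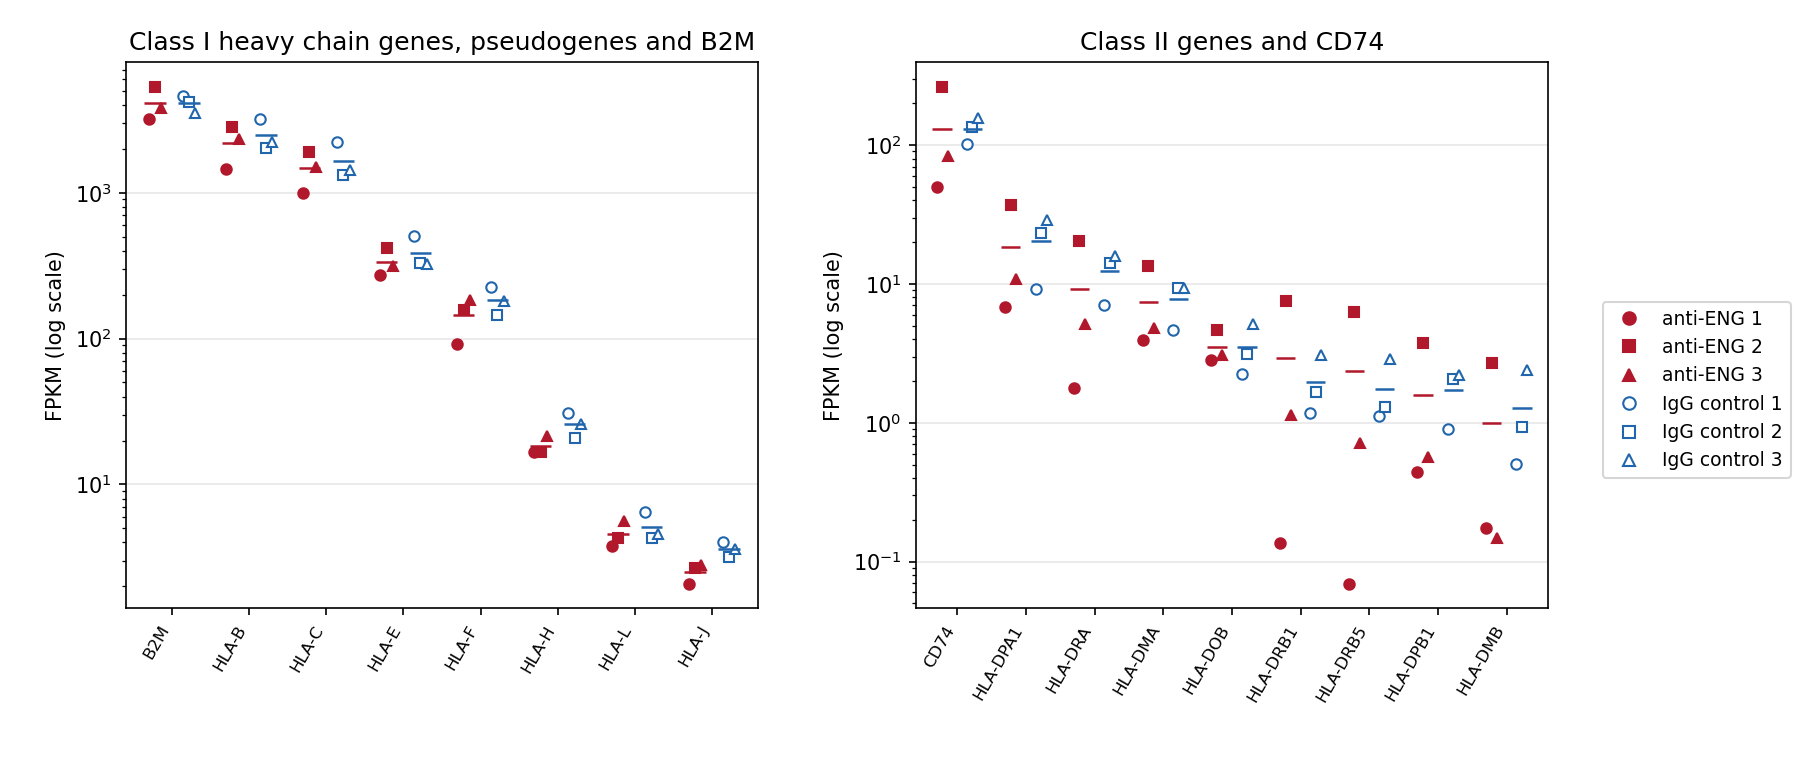
FPKM on a log scale of 8 class I and 9 class II members tested, ordered by mean, with 1 point per tumour, anti-ENG tumours filled and IgG control tumours open, and a bar at each arm's mean (n = 3 each). The class I points of a gene lie within 2.45 times of each other, while those of class II genes spread up to 90.3 times, with anti-ENG 2 at the top and anti-ENG 1 at or near the bottom in most.

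B2M, whose protein pairs with every class I heavy chain, had 3197, 5302 and 3819.99 FPKM in the anti-ENG tumours, against 4596, 4166 and 3543 FPKM in the IgG tumours. Its highest tumour was anti-ENG 2, and the arm means were 4106 ± 1081 FPKM in anti-ENG tumours and 4102 ± 529.7 FPKM in IgG tumours (SD, n = 3 each). The ratio of B2M to the sum of HLA-B and HLA-C was 0.993 to 1.302 in the anti-ENG tumours and 0.841 to 1.251 in the IgG tumours. HLA-E, which presents leader peptides of other class I chains to natural killer cell receptors, had 275, 416 and 312 FPKM in the anti-ENG tumours, against 503, 328 and 326 FPKM in the IgG tumours. HLA-F, a less polymorphic class I gene, had 92.3, 157 and 183 FPKM in the anti-ENG tumours, against 226, 145 and 181 FPKM in the IgG tumours. Both again had IgG control 1 highest and anti-ENG 1 lowest, with overlapping arms. HLA-G, the class I gene known from the placenta, stayed below the filter, at 0.197 to 0.366 FPKM in the anti-ENG tumours and 0 to 0.825 FPKM in the IgG tumours.

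The class I pseudogenes gave the members of smallest p. HLA-H had 16.6, 16.8 and 21.6 FPKM in the anti-ENG tumours, against 31.1, 20.7 and 26.1 FPKM in the IgG tumours, with -0.47 as log2 fold change (standard error 0.18; limma unadjusted p = 0.0295, adjusted p = 0.529). HLA-J had 2.09, 2.67 and 2.80 FPKM in the anti-ENG tumours, against 4.04, 3.17 and 3.61 FPKM in the IgG tumours, with -0.39 as log2 fold change (standard error 0.15; limma unadjusted p = 0.0364, adjusted p = 0.529). The arms of HLA-J lay apart, which gave it an exact permutation p of 0.1, the smallest that 3 against 3 allows. HLA-L had 3.80, 4.31 and 5.65 FPKM in the anti-ENG tumours, against 6.45, 4.30 and 4.55 FPKM in the IgG tumours, with overlapping arms. These loci share long stretches with functional class I genes, so the assignment of fragments between them is uncertain. They may therefore not be separate measurements, though all enter the counts of class I members. HLA-F-AS1, which overlaps HLA-F on the other strand, had 4.24, 7.25 and 7.89 FPKM in the anti-ENG tumours, against 7.47, 7.51 and 8.41 FPKM in the IgG tumours. Whether the counting used strand is unknown here, so its reads and those of HLA-F may not be separable.

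Between the arms, 9 of 9 class I estimates lay below 0, where 48.8% of all genes tested did. Their median log2 fold change was -0.20, against a median of 0.0065 over all genes. It was -0.38 after quantile normalization, -0.32 with equal sums of FPKM (all genes -0.10) and -0.038 with limma array weights, where 4 of 9 estimates were above 0. Estimates ran from -0.47 for HLA-H to -0.022 for B2M. HLA-B averaged 2205 ± 701 FPKM in anti-ENG tumours and 2490.2 ± 643 FPKM in IgG tumours (SD, n = 3 each), for a log2 fold change of -0.20 (95% interval -0.89 to 0.49, limma adjusted p = 0.809). This difference lay within the spread between tumours. Leaving out IgG control 1 put the class I median at 0.0017, and leaving out anti-ENG 1 at -0.020, and without both it was 0.14, with 7 of 9 estimates above 0. It was -0.41 without anti-ENG 2, -0.34 without IgG control 2 and -0.30 without IgG control 3. IgG control 1 was highest in 8 of 9 members and anti-ENG 1 lowest in 9 of 9. Leaving out both therefore raises these estimates by construction.

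Genes of peptide processing and loading varied less than the heavy chains. In the 12 members the median standard deviation within arms was 0.25 on the log2 scale, against 0.33 for the 9 class I members and 0.19 for all genes tested. TAP1, which codes for a subunit of the peptide transporter, had 111, 163 and 141 FPKM in the anti-ENG tumours, against 181, 116 and 135 FPKM in the IgG tumours. The order of the 6 tumours was the same in HLA-B, HLA-C, TAP1 and the trimming peptidase gene ERAP1, namely IgG control 1, anti-ENG 2, anti-ENG 3, IgG control 3, IgG control 2 and anti-ENG 1 from high to low. That order was found in 59 genes, 0.469% of those tested. TAPBP, which codes for the loading chaperone tapasin, had the smallest p of the processing genes. It had 45.0, 74.8 and 85.4 FPKM in the anti-ENG tumours, against 119.5, 71.2 and 86.3 FPKM in the IgG tumours. The arms overlapped, and the log2 fold change was -0.44 (SE 0.28, limma adjusted p = 0.584). Without IgG control 1 it was -0.24, leaving out anti-ENG 1 gave -0.17, and leaving out both, its highest and lowest tumours, gave 0.027.

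**Figure D2:**
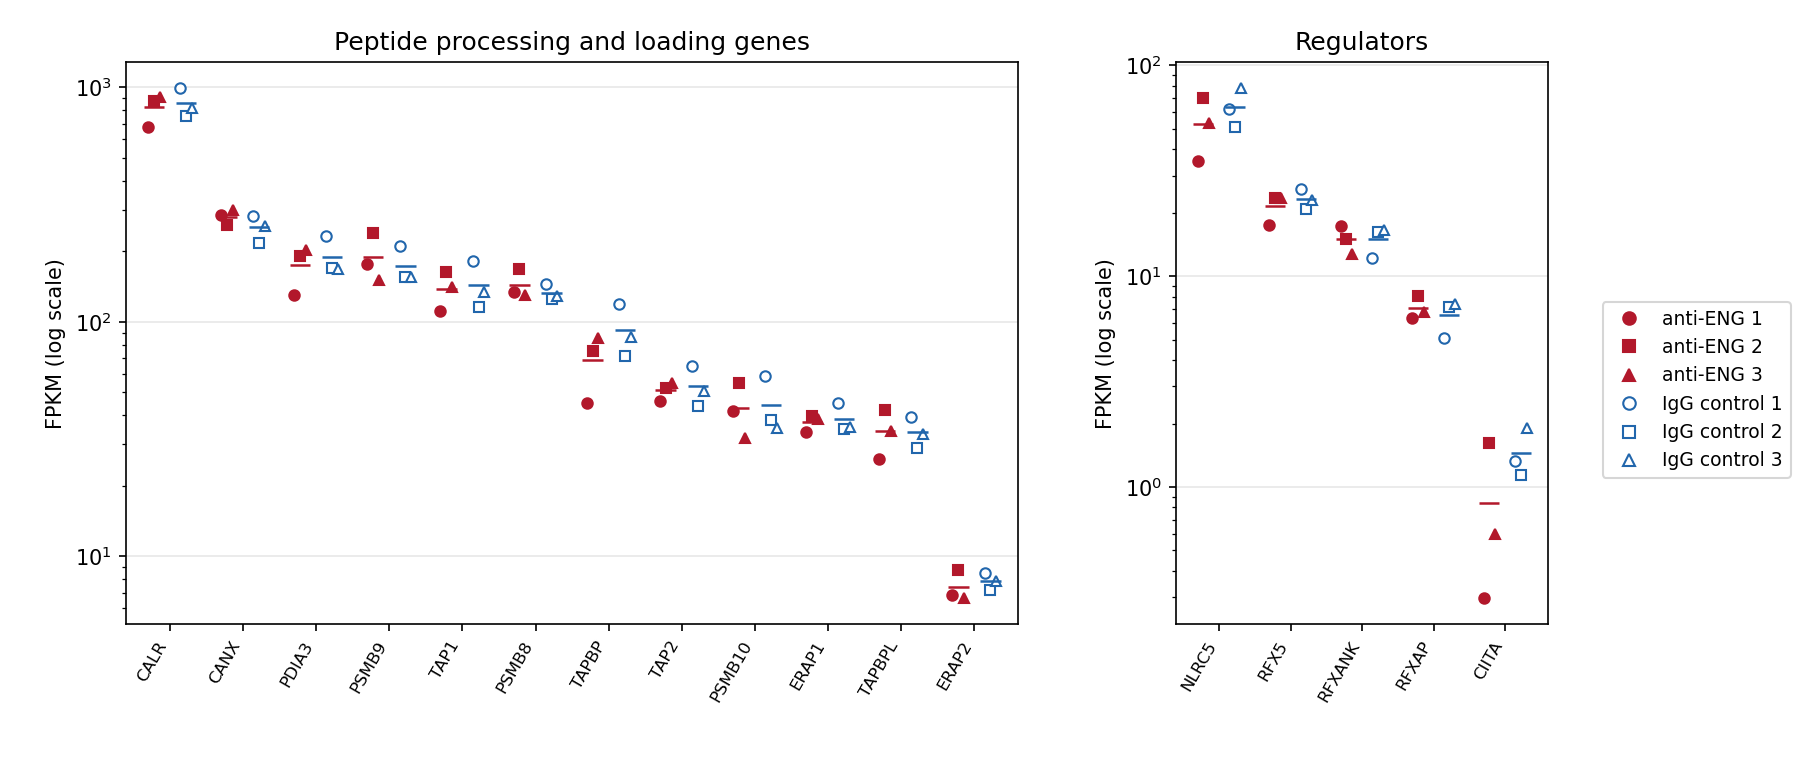
FPKM on a log scale of the 12 processing and loading genes and the 5 regulators, with 1 point per tumour, anti-ENG tumours filled and IgG control tumours open, and a bar at each arm's mean (n = 3 each). The arms overlap in every gene shown, and CIITA spreads most, by 6.42 times from its lowest to its highest tumour.

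The remaining processing genes were split in direction. CANX, which codes for the lectin chaperone calnexin, had 285, 259 and 299 FPKM in the anti-ENG tumours, against 283, 217 and 257 FPKM in the IgG tumours, a log2 fold change of 0.16 (limma adjusted p = 0.680) that was -0.030 after quantile normalization. PSMB8, an inducible catalytic proteasome subunit gene, had 134, 168 and 130.4 FPKM in the anti-ENG tumours, against 145, 125 and 129 FPKM in the IgG tumours, a log2 fold change of 0.11 (limma adjusted p = 0.776). Anti-ENG 2 was its highest tumour, and without it the value was -0.0033. Of the 12 processing members 8 estimates were below 0 and 4 above, with a median of -0.041 and adjusted p-values from 0.584 to 0.998. All 12 estimates were above 0 without both IgG control 1 and anti-ENG 1, where the median was 0.20. IgG control 1 was the highest tumour in 7 of the 12 and anti-ENG 1 the lowest in 6, so leaving out both favours estimates above 0. All 12 were below 0 after quantile normalization, where the median was -0.090. With equal sums 11 of 12 were below 0, with a median of -0.16 (all genes -0.10).

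Genes of the constitutive catalytic subunits of the proteasome had higher estimates than those of the inducible ones, a difference that was not tested. The inducible genes had log2 fold changes of 0.11 for PSMB8, 0.11 for PSMB9 and -0.0345 for PSMB10. PSMB8, PSMB9 and PSMB10 replace PSMB5, PSMB6 and PSMB7 in the immunoproteasome. The constitutive genes had 3 of 3 estimates above 0, under each of the 3 other scalings as well, and their arms lay apart in 3 of 3, against 10.6% of all genes with the anti-ENG arm higher. PSMB7 averaged 189 ± 43.9 FPKM in anti-ENG tumours and 129.7 ± 6.51 FPKM in IgG tumours (SD, n = 3 each), with 0.51 as log2 fold change (standard error 0.18; limma adjusted p = 0.529). The summed inducible subunits were 0.783, 1.204 and 1.013 times the summed constitutive ones in anti-ENG 1, 2 and 3, against 1.47, 1.11 and 1.21 times in IgG control 1, 2 and 3. These ratios overlapped between the arms, and the lowest was that of anti-ENG 1.

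Class II transcripts were present at far lower levels and differed most between single tumours. CD74, the invariant chain that occupies the class II groove until the endosome, had 50.3, 261 and 83.0 FPKM in the anti-ENG tumours, against 102, 135 and 158 FPKM in the IgG tumours. HLA-DPA1, the alpha chain gene of HLA-DP, had 6.88, 37.3 and 10.8 FPKM in the anti-ENG tumours, against 9.12, 23.1 and 29.0 FPKM in the IgG tumours. HLA-DRA, the alpha chain gene of HLA-DR, had 1.77, 20.4 and 5.17 FPKM in the anti-ENG tumours, against 7.01, 14.2 and 16.0 FPKM in the IgG tumours. In each of these genes anti-ENG 2 was the highest tumour of all 6 and anti-ENG 1 the lowest, so that the IgG tumours lay inside the range of the anti-ENG arm. HLA-DRA was 11.5 times as high in anti-ENG 2 as in anti-ENG 1, the tumours that share a code number.

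The beta chain genes of HLA-DR and HLA-DP were lower, and their ratios between tumours were larger, with anti-ENG 1 values near 0. On the log2(FPKM + 1) scale, which damps low genes, their standard deviation within arms was not larger. It was 1.10 for HLA-DRB1 and 1.07 for HLA-DRB5, against 1.13 for HLA-DRA, and 0.739 for HLA-DPB1, against 1.02 for HLA-DPA1. HLA-DRB1 had 0.136, 7.53 and 1.13 FPKM in the anti-ENG tumours, against 1.17, 1.65 and 3.10 FPKM in the IgG tumours. HLA-DRB5 had 0.0694, 6.27 and 0.710 FPKM in the anti-ENG tumours, against 1.11, 1.29 and 2.86 FPKM in the IgG tumours. These 2 genes are similar in sequence, and with the pseudogene HLA-DRB6 they can share fragments. They are therefore not separate measurements, though both enter the counts of class II members. HLA-DPB1 had 0.440, 3.73 and 0.562 FPKM in the anti-ENG tumours, against 0.904, 2.06 and 2.21 FPKM in the IgG tumours. The ratio of HLA-DPB1 to HLA-DPA1 was 0.0521 to 0.1001 in the anti-ENG tumours and 0.0762 to 0.0991 in the IgG tumours. Per length, the beta chain gene was thus far below the alpha chain gene in all 6 tumours. Cell line alleles that differ from the reference genome can lose alignments, and HLA beta chain genes are among the most polymorphic human genes. Whether this lowered the beta chain values here was not tested.

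Of the peptide exchange genes, HLA-DMA had 3.97, 13.5 and 4.80 FPKM in the anti-ENG tumours, against 4.64, 9.31 and 9.32 FPKM in the IgG tumours. Its partner HLA-DMB had 0.174, 2.69 and 0.148 FPKM in the anti-ENG tumours, against 0.508, 0.935 and 2.39 FPKM in the IgG tumours. Both repeated the high value of anti-ENG 2. HLA-DOB, which codes for a chain of the inhibitor of HLA-DM, differed from the rest, with 2.83, 4.63 and 3.10 FPKM in the anti-ENG tumours and 2.24, 3.15 and 5.18 FPKM in the IgG tumours. Its highest tumour was IgG control 3 and its lowest IgG control 1. The HLA-DQ genes were close to 0. HLA-DQA1, HLA-DQA2 and HLA-DQB1 did not exceed 0.585 FPKM in any tumour, and in each of them anti-ENG 2 was highest, HLA-DQB1 being listed above 0 in anti-ENG 2 alone at 0.117 FPKM. HLA-DRB6 ran from 0.131 to 1.48 FPKM in the anti-ENG tumours and from 0.192 to 0.698 FPKM in the IgG tumours, and HLA-DOA did not exceed 0.111 FPKM. HLA-DPB2, HLA-DQB2, HLA-DRB3 and HLA-DRB4 were listed at 0 in all 6 tumours. HLA-DRB3 and HLA-DRB4 are carried by some human haplotypes and not by others.

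No class II gene passed the test between the arms. Estimates lay below 0 in 8 of 9 members, with a median log2 fold change of -0.27 and no arms apart (0 of 9, 0%, against 17.3% of all genes). The median was -0.56 with a pseudocount of 0.1 and -0.17 after quantile normalization. HLA-DRA averaged 9.12 ± 9.93 FPKM in anti-ENG tumours and 12.4 ± 4.74 FPKM in IgG tumours (SD, n = 3 each), for a log2 fold change of -0.83 (95% interval -2.43 to 0.77, limma adjusted p = 0.663). CD74 averaged 132 ± 114 FPKM in anti-ENG tumours and 132 ± 27.7 FPKM in IgG tumours (SD, n = 3 each), for a log2 fold change of -0.33 (95% interval -1.59 to 0.93, limma adjusted p = 0.825). The intervals leave room for changes of either sign in both genes. HLA-DRB1 averaged 2.93 FPKM in anti-ENG tumours and 1.98 FPKM in IgG tumours, but had -0.065 as log2 fold change (standard error 0.68; limma adjusted p = 0.975), so linear means and log values differed in sign.

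Class I and class II genes thus had different tumour orders. In class I, 8 of 9 members were highest in IgG control 1, where 21.4% of all genes were, and 9 of 9 were lowest in anti-ENG 1, where 25.4% of all genes were. Among class II members 8 of 9 were highest in anti-ENG 2, where 13.6% of all genes were, and 7 of 9 were lowest in anti-ENG 1. Both held for the same 7, namely CD74, HLA-DMA, HLA-DPA1, HLA-DPB1, HLA-DRA, HLA-DRB1 and HLA-DRB5, against 3.98% of all genes. HLA-DMB, also highest in anti-ENG 2, had a mean of 1.14 FPKM and would not have reached the filter without that tumour. The filter thus favours its place in counts of genes high in anti-ENG 2. In anti-ENG 1, where 30.5% of all genes were highest, 0 of 9 class I and 0 of 9 class II members were. CD74, HLA-DPB1, HLA-DRA, HLA-DRB1 and HLA-DRB5 shared 1 order, anti-ENG 2, IgG control 3, IgG control 2, IgG control 1, anti-ENG 3 and anti-ENG 1 from high to low. Of all genes tested 26 had that order, 0.207%. On the scale of FPKM + 1, anti-ENG 2 was at least 2 times as high as anti-ENG 1 in 8 of 9 class II members and 0 of 9 class I members, against 2.93% of all genes. It was at least 4 times as high in 5 of 9 class II members, against 0.286% of all genes. Anti-ENG 1 was lower than IgG control 1 by at least 2 times in 4 of 9 class I and 2 of 9 class II members, against 6.32% of all genes. The median standard deviation within arms was 0.88 on the log2 scale in class II members, against 0.33 in class I members.

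**Figure D3:**
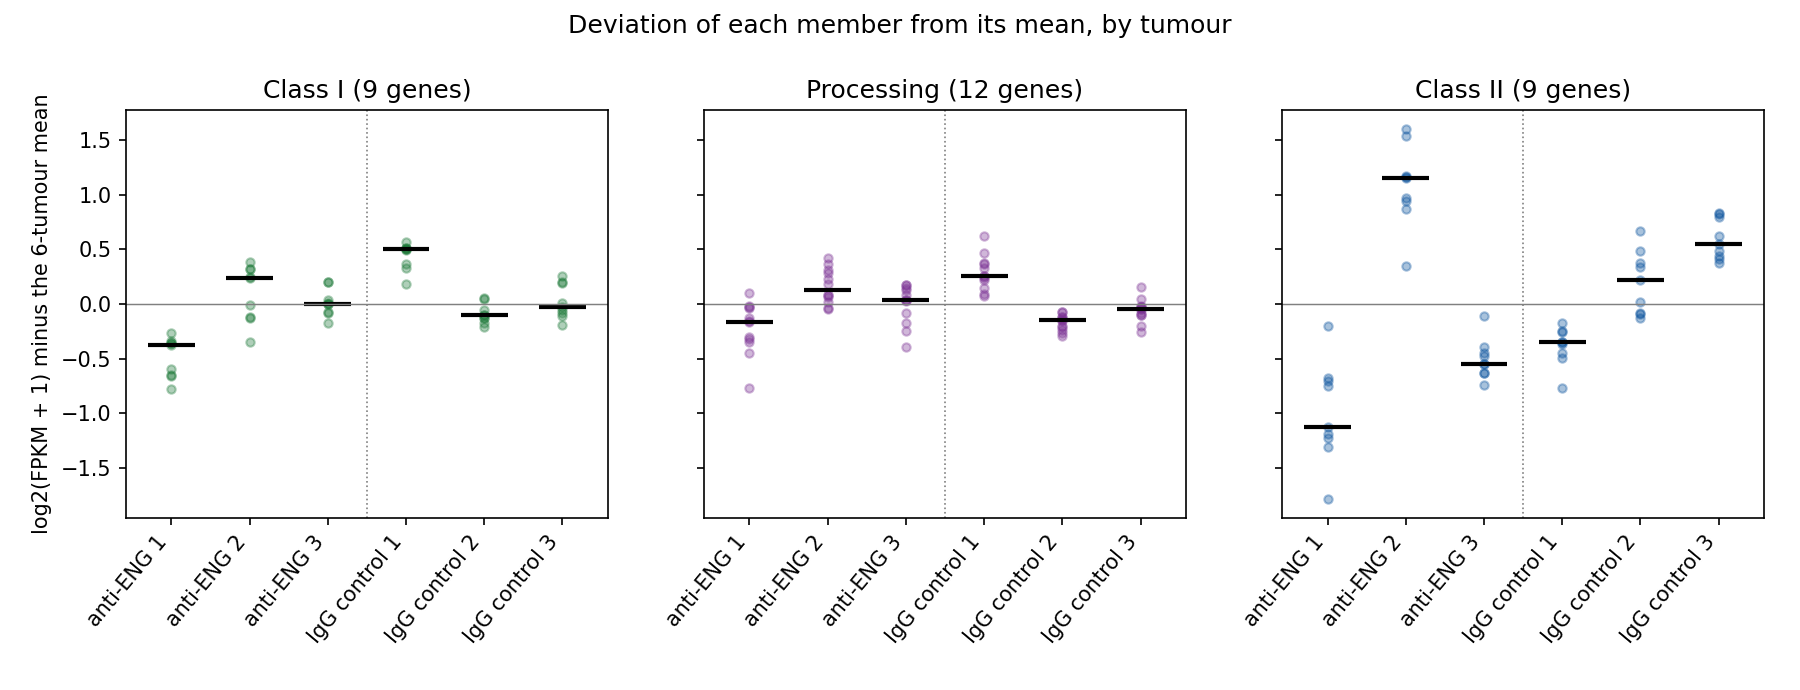
Deviation of log2(FPKM + 1) of each tested member from its mean over the 6 tumours, for class I, processing and class II genes, with 1 point per gene and a bar at the median. Class I medians are lowest in anti-ENG 1 (-0.38) and highest in IgG control 1 (0.50), while class II medians are lowest in anti-ENG 1 (-1.13) and highest in anti-ENG 2 (1.15).

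Ratios of summed levels restate this contrast from the same values. The sum of HLA-B and HLA-C was 151, 49.3 and 146 times the sum of the 8 tested class II genes other than CD74 in anti-ENG 1, 2 and 3, against 205, 59.8 and 52.3 times in IgG control 1, 2 and 3. High ratios thus occurred in both arms, in anti-ENG 1 and 3 and in IgG control 1. IgG control 1, the tumour with the highest sum of HLA-B and HLA-C, had the least class II RNA of its arm, at 26.7 FPKM, against 55.7 and 69.98 FPKM in IgG control 2 and 3. The ratio of CD74 to those class II genes varied less, from 2.72 to 3.14 in the anti-ENG tumours and from 2.25 to 3.84 in the IgG tumours. Whether the response to treatment differed between class I and class II genes was not tested.

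The coactivator genes NLRC5 and CIITA had nearly the same tumour order. NLRC5 had 35.3, 70.1 and 53.2 FPKM in the anti-ENG tumours, against 62.0, 50.99 and 78.1 FPKM in the IgG tumours. CIITA had 0.296, 1.61 and 0.601 FPKM in the anti-ENG tumours, against 1.32, 1.14 and 1.899 FPKM in the IgG tumours. Both were lowest in anti-ENG 1 and highest in IgG control 3, followed by anti-ENG 2, so neither had the exact order of the HLA genes it is known to activate. CIITA was 5.45 times as high in anti-ENG 2 as in anti-ENG 1. Anti-ENG 1 and 3, the tumours with the least CIITA, were also the 2 lowest in 6 of 9 class II members, and not in HLA-DPA1, HLA-DMA and HLA-DOB. HLA-DRB1 and HLA-DRB5, which are not separate measurements, are both among the 6. The share of all genes with these 2 tumours lowest was not computed, and a link to CIITA was not tested. The log2 fold change was -0.47 for CIITA (SE 0.29, limma adjusted p = 0.584) and -0.30 for NLRC5 (SE 0.26, limma adjusted p = 0.680), with overlapping arms. Without anti-ENG 1 they were -0.25 for CIITA and -0.039 for NLRC5. With a pseudocount of 0.1, which damps low genes less, CIITA was at -0.96.

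The subunits of the RFX complex, which binds class I and class II promoters, were steadier. RFX5 had 17.5, 23.4 and 23.5 FPKM in the anti-ENG tumours, against 26.0, 20.9 and 23.1 FPKM in the IgG tumours. RFXAP had 6.31, 8.01 and 6.75 FPKM in the anti-ENG tumours, against 5.11, 7.11 and 7.36 FPKM in the IgG tumours. RFXANK had 17.3, 15.0 and 12.8 FPKM in the anti-ENG tumours, against 12.2, 16.2 and 16.5 FPKM in the IgG tumours. RFX5 was lowest in anti-ENG 1, whereas RFXANK was highest there. Their log2 fold changes were -0.12, 0.10 and 0.0065, each within the spread between tumours (limma adjusted p from 0.776 to 0.991).

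The sign of most estimates turned when a single tumour was left out. Leaving out 1 tumour at a time turned the sign in 24 of the 36 members at least once, in 5 of 9 class I, 7 of 9 class II, 9 of 12 processing and 3 of 5 regulator genes. The share of all genes tested whose sign turned was not computed. Estimates near 0, such as 0.0014 for TAPBPL and -0.022 for B2M, need little to change sign, so the count does not set the members apart. Without anti-ENG 1 the sign turned in 16 members, and without IgG control 1 in 14. Leaving out both turned 21, but these tumours were the extremes of most class I members, so this count follows in part from their choice. HLA-H, HLA-J and HLA-F were among the class I members that kept their sign in all 6 fits, HLA-J between -0.46 and -0.30 and HLA-F between -0.58 and -0.096. HLA-DRA kept a negative sign in all 6, but its log2 fold change was -1.62 without anti-ENG 2 and -0.15 without anti-ENG 1. The class II median was -0.89 without anti-ENG 2 and 0.13 without anti-ENG 1. It was -0.50 without IgG control 1, -0.19 without IgG control 2, -0.029 without IgG control 3 and -0.024 without anti-ENG 3. In none of these fits did a member reach an adjusted p under 0.05.

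**Figure D4:**
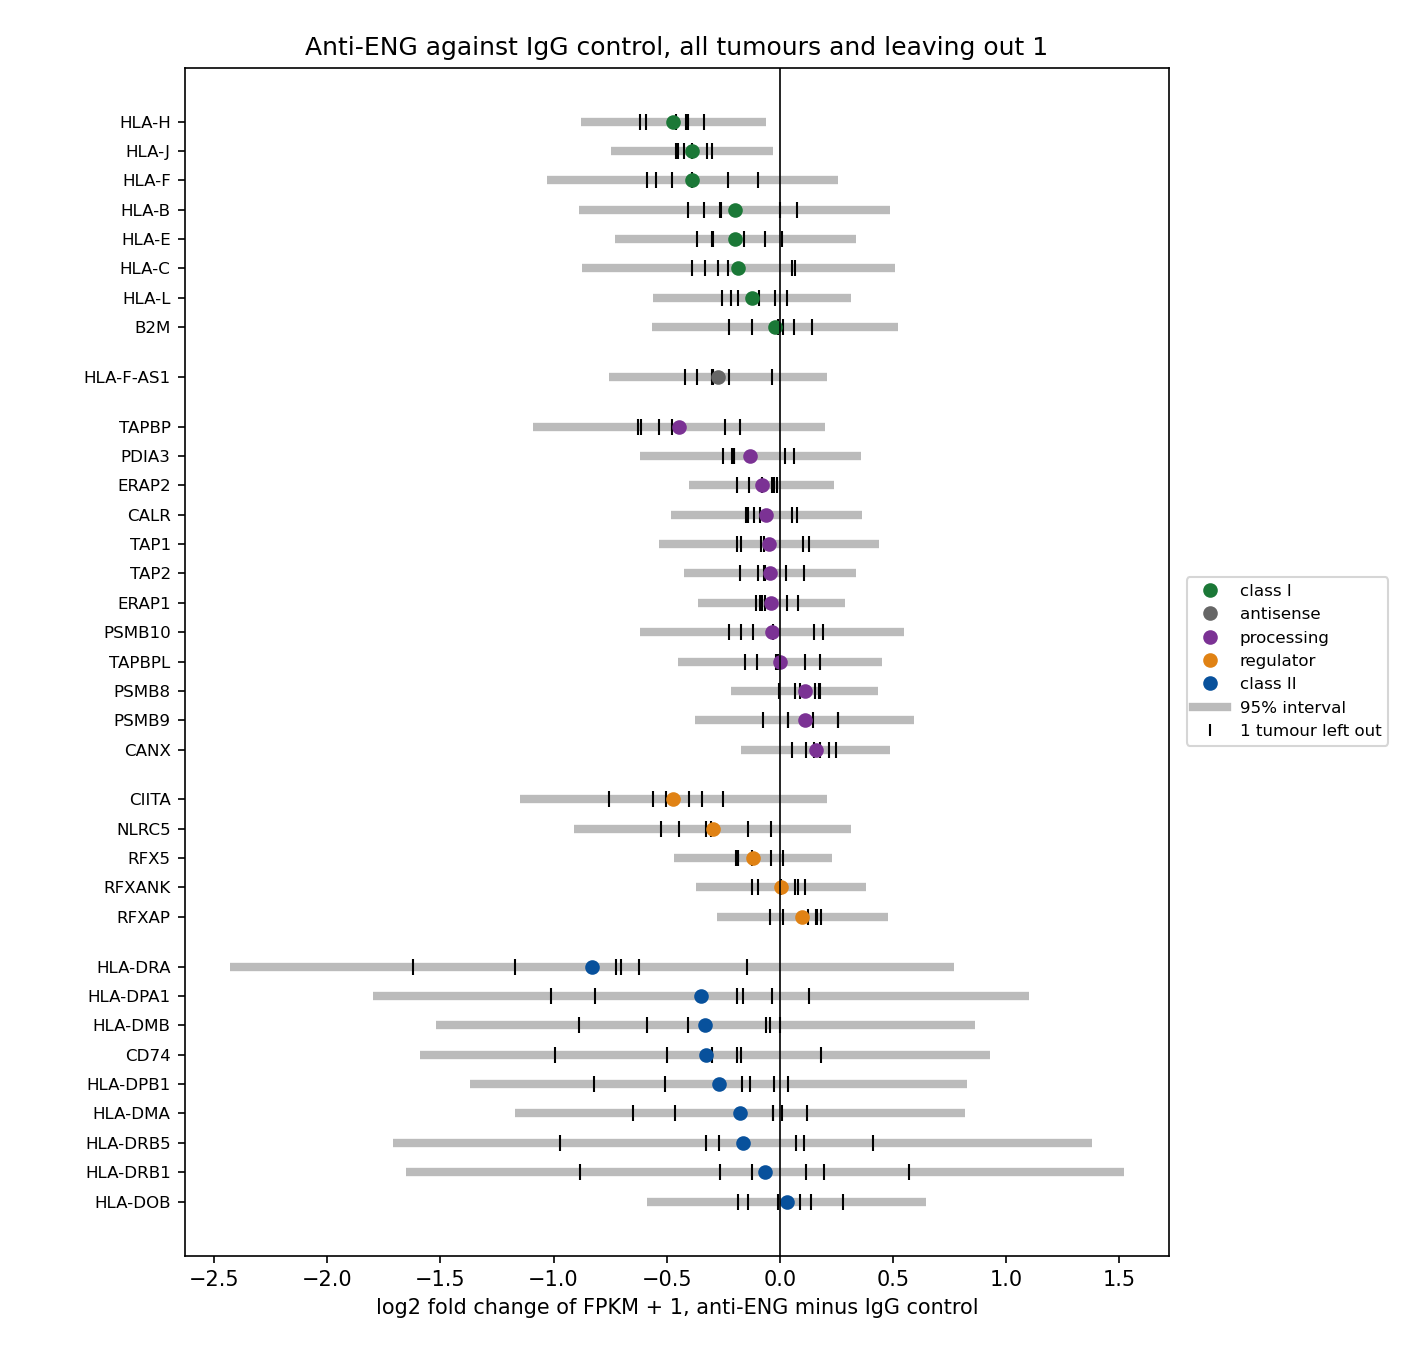
Log2 fold change of FPKM + 1, anti-ENG minus IgG control, for 35 tested members, with the limma estimate (coloured point), its 95% interval (grey bar) and the estimates after leaving out each tumour in turn (black ticks). Intervals exclude 0 for HLA-H and HLA-J alone, before any adjustment, and the ticks of 24 members fall on both sides of 0.

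Genes upstream of the HLA genes passed no adjusted threshold either. Of 10 tested genes of the interferon gamma axis 6 estimates were below 0, and 7 of the 10 were highest in IgG control 1, as the class I genes were. Below 0 were 8 of 10 with upper quartile rescaling, 9 of 10 with quantile normalization and 10 of 10 with equal sums of FPKM, where 66.9% of all genes were below 0 with a median of -0.10. STAT2, a transcription factor of type I interferon signalling, averaged 46.96 ± 12.9 FPKM in anti-ENG tumours and 67.1 ± 9.34 FPKM in IgG tumours (SD, n = 3 each). Its log2 fold change was -0.54 (limma adjusted p = 0.529). The arms lay apart in 2 of the 10, STAT2 and IFNGR1, against 6.75% of all genes with the anti-ENG arm lower. The receptor chain gene IFNGR1 had a log2 fold change of -0.19, IRF1, a direct activator of class I promoters, -0.31 and the feedback inhibitor SOCS1 -0.55. Human IFNG was listed at 0 in all tumours, and mouse interferon gamma was not measured separately. Of 18 interferon-induced effector genes 11 estimates were above 0, and 14 were highest in anti-ENG 2, the tumour with the most class II RNA. ISG15 had 636, 838 and 541 FPKM in the anti-ENG tumours, against 612, 453 and 502 FPKM in the IgG tumours. PSME1 and PSME2, the proteasome activator genes, had log2 fold changes of 0.20 and 0.18, and IFIT1 had 0.32. Effector estimates split into 5 above and 13 below 0 after quantile normalization and 7 above and 11 below with equal sums.

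Neighbouring routes of presentation were likewise split. FCGRT, the heavy chain gene of the neonatal Fc receptor, averaged 4.54 ± 1.12 FPKM in anti-ENG tumours and 6.89 ± 1.37 FPKM in IgG tumours (SD, n = 3 each), for a log2 fold change of -0.52 (limma adjusted p = 0.529). ULBP3 and MICA, genes for ligands of the natural killer receptor NKG2D, had log2 fold changes of 0.32 and 0.16, and the class I-like iron regulator HFE had -0.36. In that list 4 of 7 tested genes were below 0, and CD1A, CD1B, CD1C and CD1E were listed at 0. All 6 endosomal processing genes had estimates below 0, also under each of the 3 other scalings, with none apart. The cathepsin genes CTSB and CTSD had log2 fold changes of -0.24 and -0.17. CTSS, which codes for the protease that trims the invariant chain, had 11.6, 46.5 and 46.6 FPKM in the anti-ENG tumours, against 69.1, 25.1 and 34.9 FPKM in the IgG tumours. Its highest tumour was IgG control 1, unlike the class II genes. The promoter partners NFYB and ATF1 had log2 fold changes of 0.20 and 0.21, and the loading partners ERP29 and UGGT1 had 0.20 and -0.18. In none of these lists did a gene pass the adjusted threshold.

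Markers of other cells that can carry class II differed widely in level, and fewer cells of a type and less RNA per cell cannot be told apart in such bulk samples. Of 14 leukocyte markers, 3 were listed at 0 in all tumours, CD3E and NKG7 among them, and 3 reached the filter of 1 FPKM, CD68, CSF1R and NCAM1. Their summed level was 80.5 to 112 FPKM in the anti-ENG tumours and 67.5 to 124 FPKM in the IgG tumours, most of it from CD68, a macrophage marker that other cells also express, at 58.4 to 115 FPKM over the 6 tumours. Of the 11 markers above 0, 4 were highest in IgG control 1, CD68 among them, 3 in anti-ENG 2, 2 in anti-ENG 3 and 2 in IgG control 3. PTPRC, the pan-leukocyte gene CD45, had 0.184, 1.13 and 0.689 FPKM in the anti-ENG tumours, against 0.342, 0.560 and 0.765 FPKM in the IgG tumours. PTPRC, ITGAM and CD4, 3 of the 11, were highest in anti-ENG 2 and lowest in anti-ENG 1, as CD74 and HLA-DRA were, with ITGAM at up to 0.650 FPKM and CD4 at up to 0.587 FPKM. CD14, a monocyte marker, was highest in IgG control 1 and ITGAX, a dendritic cell marker, in IgG control 3, and both stayed below 1 FPKM in all tumours. NCAM1, a natural killer cell marker that neural crest tumours can also express, had 6.62, 4.98 and 10.8 FPKM in the anti-ENG tumours, against 4.49, 4.78 and 2.64 FPKM in the IgG tumours (limma unadjusted p = 0.0328, adjusted p = 0.529). Its arms lay apart, as in 10.6% of all genes with the anti-ENG arm higher. The table lists human symbols, so host leukocytes enter where mouse fragments align to the human genome, and their part in the class II values was not tested. Fibroblast markers had estimates below 0 in 6 of 6, against 48.8% of all genes tested. They summed to 305 to 863 FPKM in the anti-ENG tumours and 741 to 1443 FPKM in the IgG tumours. Of the 6, 5 were lowest in anti-ENG 1, where 25.4% of all genes were. Endothelial markers summed to 2.62 to 4.16 FPKM in the anti-ENG tumours and 2.44 to 4.69 FPKM in the IgG tumours. Whether these fibroblast and endothelial markers reflect the human tumour cells or mouse fragments that align to the human genome was not tested. The part of these markers in the class I values was not tested.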

How the data were processed

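The authors deposited FPKM values, 1 column per tumour. The submitters' processing notes name GRCh37 (hg19) as the build and, without roles, the tools Cufflinks 2.2.1 with Cuffnorm, TopHat2 2.0.10, SAMtools 0.1.1.9, Bowtie 1.0.0 and FastQC 0.10.1. How values were scaled, whether strand was used and what became of mouse reads is not stated. The labels' protocols name several kits and instruments without assigning them to samples, so whether kits differed between the arms is unknown. Arms and replicate numbers come from the titles.

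Genes whose mean reached 1 FPKM were tested in limma 3.58.1 under R 4.3.3, two-sided, with log2(FPKM + 1) as the value, arm as the only term and a trended variance, with Benjamini-Hochberg adjustment over all 12586 genes and a threshold of 0.05. Fold changes on this scale understate those of low genes. The fit was checked on simulated data. Standard deviations within arms are limma's residual ones.

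Members and lists were chosen with earlier results of these data known, and no p is adjusted over a list. A class I member and a marker enter the counts, but their values are not reported here. Otherwise values per tumour are given for class I and class II members tested, for the regulators and for the 3 members of smallest p in each direction, and up to 4 genes of smallest p in each pathway list are named. TAP1, which was shown for its tumour order, and PTPRC, CD14, ITGAX, VIM and the cell markers named beside them were chosen after their values were seen. Class II includes CD74, and class I its pseudogenes and B2M. CTSL was matched under its older symbol, CTSL1. Total depth being unknown, no counting intervals are given. Human sequences and coordinates were not used here.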

Additional observations from a re-analysis of the deposited data

How the results depend on the processing

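In limma, 0 genes were called under all 19 alternatives, with 842 to 1653 genes at an unadjusted p under 0.05 where all tumours were kept (1154 in the fit reported) and 662 to 1566 where 1 was left out. No estimate passed the threshold as reported, so the changes given are of sign, and the cause was not tested. Values here are log2 fold changes.

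With upper quartile rescaling the sign turned for RFXANK (-0.023) and TAPBPL (-0.028). With quantile normalization it turned for CANX (-0.030), HLA-DRB1 (0.0086), PSMB8 (-0.015), PSMB9 (-0.026) and TAPBPL (-0.050). With equal sums of FPKM, which moved the median of all genes to -0.10 and the unadjusted calls to 168 higher and 1088 lower (700 and 454 as reported), it turned for HLA-DOB (-0.065), PSMB8 (-0.011), PSMB9 (-0.012), RFXANK (-0.11), RFXAP (-0.0060) and TAPBPL (-0.12). Upper quartile rescaling gave 496 higher and 572 lower. With limma array weights it turned for the processing median (0.075), B2M (0.074), CALR (0.069), ERAP1 (0.059), HLA-B (0.030), HLA-C (0.053), HLA-DOB (-0.030), HLA-DRB1 (0.073), HLA-L (0.018), PDIA3 (0.041), PSMB10 (0.063), RFXANK (-0.12), TAP1 (0.12) and TAP2 (0.081). With the code number as a correlated block PSMB10 was at 0.020.

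IgG control 1 and anti-ENG 1 were the extremes of most class I members, so leaving out both raises these estimates by construction. With both left out, the class I median was 0.14 and the processing median 0.20. The sign then turned for B2M (0.23), CALR (0.19), CD74 (0.014), ERAP1 (0.15), ERAP2 (0.016), HLA-B (0.28), HLA-C (0.31), HLA-DOB (-0.076), HLA-DRB1 (0.37), HLA-DRB5 (0.24), HLA-E (0.14), HLA-F (0.062), HLA-L (0.13), PDIA3 (0.22), PSMB10 (0.19), RFX5 (0.092), RFXANK (-0.23), TAP1 (0.28), TAP2 (0.18) and TAPBP (0.027).

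Leaving out 1 tumour at a time, the class I median ran from -0.41 to 0.0017, the class II median from -0.89 to 0.13 and the processing median from -0.14 to 0.11. The ranges were -0.22 to 0.14 for B2M, -0.41 to 0.076 for HLA-B, -0.39 to 0.068 for HLA-C, -0.36 to 0.011 for HLA-E and -0.26 to 0.030 for HLA-L. They were -0.99 to 0.18 for CD74, -0.88 to 0.57 for HLA-DRB1, -0.97 to 0.41 for HLA-DRB5, -1.01 to 0.13 for HLA-DPA1, -0.82 to 0.035 for HLA-DPB1, -0.65 to 0.12 for HLA-DMA and -0.18 to 0.28 for HLA-DOB. They were -0.15 to 0.076 for CALR, -0.10 to 0.082 for ERAP1, -0.25 to 0.064 for PDIA3, -0.23 to 0.19 for PSMB10, -0.0033 to 0.18 for PSMB8, -0.075 to 0.26 for PSMB9, -0.19 to 0.13 for TAP1, -0.17 to 0.11 for TAP2 and -0.15 to 0.18 for TAPBPL. They were -0.12 to 0.11 for RFXANK, -0.043 to 0.18 for RFXAP and -0.19 to 0.015 for RFX5.

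Same-numbered tumours had correlations of -0.33, 0.19 and 0.037 in their deviations from the arm means, and other pairs had -0.488 to 0.355. With 3 tumours per arm these deviations sum to 0 within an arm, so the correlations cannot decide whether equal numbers mark a pairing. The fit with a replicate block called 0 genes, with 842 at an unadjusted p under 0.05. Total depth is unknown, so the counting error of low class II genes, on which their largest ratios between tumours rest, was not estimated.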
